A study of Homo sapiens with 4 samples.

Results

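Of 1866 transcripts listed for both colon cancer lines, 500 were at least 2-fold higher after beta-catenin pull-down than in input RNA in HT-29 and in CaCo-2 alike. They carry 480 gene names. The members were chosen by joining the tables of both lines on the transcript identifier and keeping those whose log2 ratio of RIP to input was 1 or more in each line. For this ratio 1 FPKM was added to both the RIP level and the input level, where FPKM stands for fragments counted and scaled by transcript length and library size. Transcripts of 6 short RNA classes (snoRNA, snRNA, miRNA, rRNA, mitochondrial tRNA and miscellaneous RNA) were left out. In the whole series 19895 transcripts were listed in at least 1 table, 9880 for HT-29 and 11943 for CaCo-2.

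The study had 4 libraries, 1 per group, so no value has a replicate error and nothing was tested. HT-29 and CaCo-2 are established human colon adenocarcinoma lines, both cultured here with no treatment. Nuclei were isolated from each, and 1 library was made from RNA recovered with a beta-catenin antibody (Bethyl A302-012A) and protein G magnetic beads (RIP), and 1 from input RNA without antibody. The stated purpose was to find long non-coding RNAs that bind beta-catenin. No control precipitation was analysed here, so RNA that sticks to beads or antibody cannot be told apart from RNA bound to beta-catenin.

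Beta-catenin, the product of CTNNB1, joins cadherins to the cytoskeleton at cell junctions and, when Wnt signalling stops its destruction, enters the nucleus and works with TCF/LEF proteins on target promoters. In most colon cancers it is stabilised, commonly through loss of APC. RNA immunoprecipitation collects RNA that is attached to a protein directly, or through other proteins of the same complex.

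Each table held only transcripts that the authors' deposited fold placed at least 1.5-fold higher in the RIP, with a lowest RIP level of 1.31 FPKM in HT-29 and 0.842 FPKM in CaCo-2. The sign of every ratio was therefore fixed by the tables, and transcripts below these limits were not analysed here. Sequencing depth is unknown from FPKM. Of 11 colon epithelium markers, 6 had a transcript in the HT-29 table and 4 in that of CaCo-2, and their summed RIP level was 159 FPKM in HT-29 (71.2 in input) and 86.8 FPKM for CaCo-2 (38.6 in input). No fibroblast or endothelial marker was listed, and of 6 immune markers CD68 alone was listed, in CaCo-2, at 1.47 FPKM in the RIP and 0.954 in input. KRT18 was the only one of these markers among the members.

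The sequences of the listed transcripts were not analysed here, and promoters of the member genes were read instead, because promoters are where beta-catenin is best known to act. Of the 480 gene names, 393 matched a promoter in RefSeq (GRCh38.p14), taken as the 250 bases before the gene's first start, which need not be the start of the listed transcript. The TCF/LEF motif CTTTGAT was sought on both strands, where the other strand reads ATCAAAG. It was present in 2 of the 393 promoters (0.509%) and in 622 of all 27305 promoters of that length (2.28%). The median GC content was 65.6% in the promoters of member genes and 58% in all. That background includes genes listed for neither line. The members come from 1662 gene names listed for both lines, whose promoters were not read as a set. The differences from all promoters are therefore no result about the members. A match is a description of the letters and no match says nothing about TCF/LEF binding. The promoters below belong to the 3 genes whose member had a q of 0.05 or less in both of the authors' deposited tables and at least 1 FPKM in all 4 libraries (ANKRD30BL, DHCR7 and SLC25A39), and to the 2 genes with the motif (CHD2 and PTCD3), printed 5′ to 3′ on the gene's strand with the motif in capitals.
ANKRD30BL: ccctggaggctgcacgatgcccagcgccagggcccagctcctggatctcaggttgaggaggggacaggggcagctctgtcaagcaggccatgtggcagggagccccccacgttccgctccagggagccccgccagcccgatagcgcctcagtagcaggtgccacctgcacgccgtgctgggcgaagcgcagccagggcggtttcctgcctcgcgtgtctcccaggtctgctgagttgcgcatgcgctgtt
DHCR7: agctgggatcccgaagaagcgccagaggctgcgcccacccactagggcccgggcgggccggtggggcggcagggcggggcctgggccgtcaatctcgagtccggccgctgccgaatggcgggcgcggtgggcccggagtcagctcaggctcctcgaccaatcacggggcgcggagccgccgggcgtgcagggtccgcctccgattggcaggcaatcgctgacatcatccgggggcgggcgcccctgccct
SLC25A39: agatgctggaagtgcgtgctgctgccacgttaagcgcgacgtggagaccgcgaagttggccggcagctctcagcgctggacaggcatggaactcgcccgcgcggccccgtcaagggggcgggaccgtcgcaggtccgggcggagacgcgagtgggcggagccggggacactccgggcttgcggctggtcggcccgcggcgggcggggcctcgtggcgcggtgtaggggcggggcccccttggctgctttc
CHD2: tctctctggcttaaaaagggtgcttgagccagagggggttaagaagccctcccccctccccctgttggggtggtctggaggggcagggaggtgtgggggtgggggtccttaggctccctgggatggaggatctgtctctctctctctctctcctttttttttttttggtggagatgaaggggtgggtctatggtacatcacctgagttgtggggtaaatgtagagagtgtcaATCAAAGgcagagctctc
PTCD3: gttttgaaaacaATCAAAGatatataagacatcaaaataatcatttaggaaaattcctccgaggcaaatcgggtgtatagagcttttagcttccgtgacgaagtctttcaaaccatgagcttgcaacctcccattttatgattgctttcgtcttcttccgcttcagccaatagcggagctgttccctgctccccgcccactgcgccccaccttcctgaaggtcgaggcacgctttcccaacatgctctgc

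In GRCh38.p14 these promoters lie at chr2:132161956-132162205, chr11:71448394-71448643 and chr17:44324824-44325073 on the minus strand, and at chr15:92900074-92900323 and chr2:86105985-86106234 on the plus strand. The motif began at position -18 in CHD2, a chromatin remodelling ATPase, counted with the base just before the gene start as -1. In PTCD3, a mitochondrial protein of the pentatricopeptide family, it began at position -238. The ANKRD30BL, DHCR7 and SLC25A39 promoters held no such match, and their GC contents were 68.8%, 75.2% and 74%.

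The choice of members rested on the ratios themselves, so the counts that follow describe the selection. Outside the short classes, 55.2% of all transcripts listed for HT-29 and 33.7% of those for CaCo-2 were past 2-fold. The threshold was reached by 56.7% of the 1866 transcripts in HT-29 (1058), by 38.7% in CaCo-2 (722) and by 26.8% in both (500). The members were thus 47.3% of the HT-29 transcripts past the threshold and 69.3% of those in CaCo-2. The share differed with the input level. With an input above 0 in both lines, 133 of 1110 transcripts were members (12%). With an input listed at 0 in 1 line, 182 of 545 were members (33.4%), 104 of them at 0 in HT-29 only and 78 in CaCo-2 only. With an input listed at 0 in both lines, 185 of 211 were members (87.7%), since such a transcript passes once its RIP level reaches 1 FPKM.

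**Figure D1:**
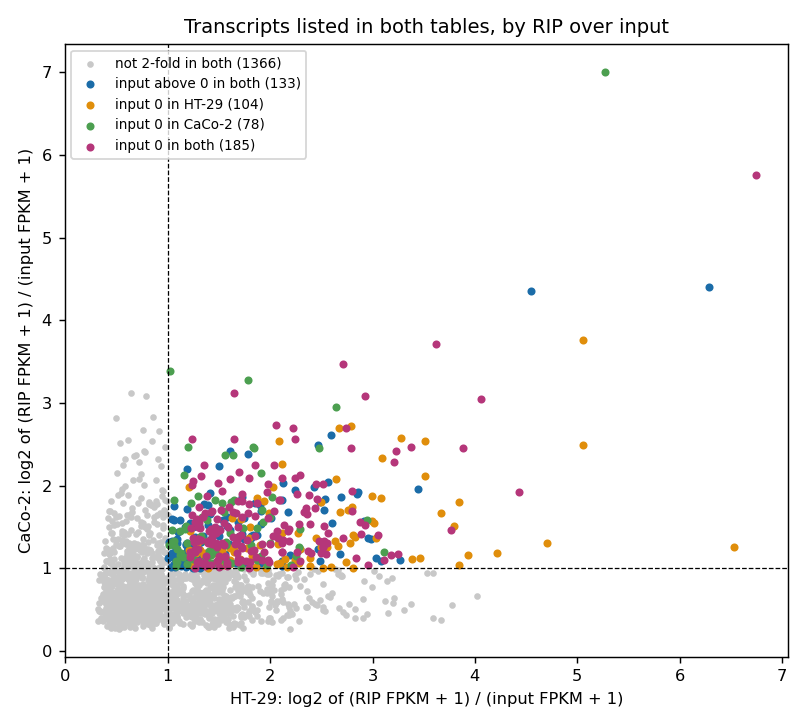
Each point is a transcript listed in both tables, with the log2 ratio of RIP to input (FPKM plus 1) in HT-29 on the x axis and in CaCo-2 on the y axis. Dashed lines mark 2-fold; the 500 members lie above both, coloured by whether input was listed at 0, and the 1366 other transcripts are grey.

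Even among the 133 members with input above 0 in both lines, many inputs were close to 0. The input was below 0.1 FPKM in HT-29 for 30 of them, in CaCo-2 for 32, and in at least 1 line for 45, which leaves 88 with at least 0.1 FPKM in both. The input was at least 1 FPKM in both lines for 36. Levels after pull-down were low as well, in members and in all listed transcripts alike. The median RIP level of the 500 members was 3.33 FPKM in HT-29 (range 1.31 to 309) and 2.26 FPKM in CaCo-2 (1.01 to 296). For all 1866 transcripts these medians were 2.61 and 2.1 FPKM. Under 2 FPKM in both RIP libraries were 73 members, 50 of them with an input of 0 in both lines, and 392 of the 1866. At least 5 FPKM in both RIP libraries was seen for 61 members, of which 37 had an input above 0 in both. Of the 1866, 161 reached that level.

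Just inside the threshold in HT-29 lay SAPCD1-AS1 (log2 ratio 1.0053), EIF2B5 (1.01) and CCNB1 (1.0148), and just outside it TRIM32 (0.9932), HPS4 (0.9975) and FKBP1AP2 (0.9991). In CaCo-2, SUMF2 (1.0044), RP1-202O8.2 (1.0047) and CDCA5 (1.0048) were just inside, and EIF4E (0.9987), LARP4 (0.9989) and DHODH (0.9997) just outside. The transcripts on either side of the threshold were thus nearly equal: SUMF2 was listed at 1.01 FPKM and DHODH at 1 FPKM in the CaCo-2 RIP, both with an input of 0.

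Most members were isoforms of protein-coding genes, as were most transcripts listed in both tables. The protein-coding class held 55.6% of the members and 50.7% of those listed. Protein-coding transcripts made up 278 members of 946 listed in both tables (29.4%), processed transcripts without an annotated reading frame 95 of 299 (31.8%), retained-intron transcripts 78 of 376 (20.7%) and transcripts annotated for nonsense-mediated decay, which carry an early stop codon, 27 of 128 (21.1%). Long non-coding RNAs of the antisense, lincRNA and sense-intronic classes were 15 of 82 (18.3%) and pseudogenes 7 of 34 (20.6%). Where input was above 0 in both lines, the shares were closer, at 13.5% for protein-coding (78 of 576), 9.8% for processed transcripts (15 of 153), 9.52% for retained introns (22 of 231), 11.8% for nonsense-mediated decay (8 of 68) and 13.3% for long non-coding RNAs (8 of 60), beside 12% overall. By class, these long non-coding RNAs were 6 of 32 antisense (18.8%), 1 of 21 lincRNA (4.76%) and 1 of 7 sense-intronic transcripts. The median genomic span was 10851 bases for members and 9853 bases for all transcripts listed in both tables. The most members lay on chromosome 11, with 53 of its 160 listed transcripts (33.1%, beside 26.8% of all), followed by chromosome 17 with 42 of 142 (29.6%). Chromosomes 20, X and 9 had similar shares of 32.8%, 31.7% and 30.8% with fewer listed transcripts.

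**Figure D2:**
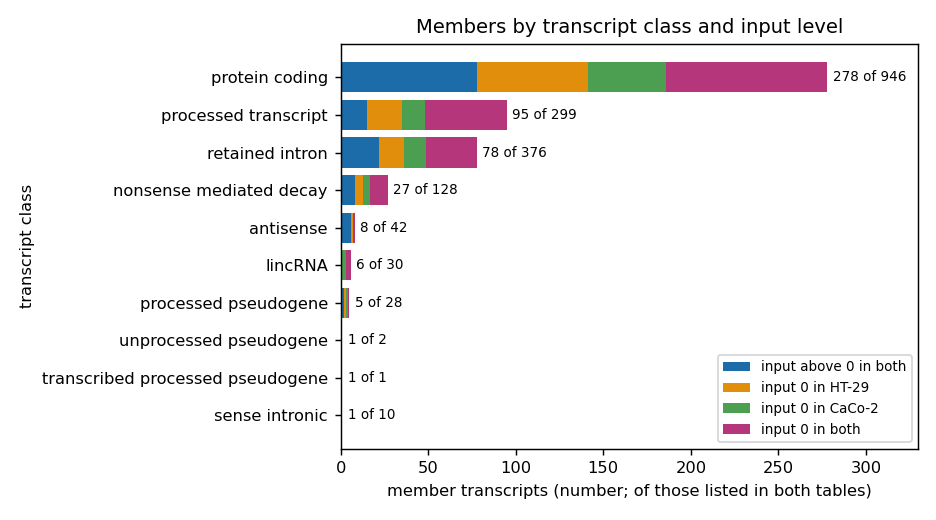
Bars give the number of member transcripts in each annotation class, split by whether input was listed at 0 in 1 line, both lines or neither; labels give the members of the transcripts listed in both tables. Protein-coding transcripts lead with 278 of 946, and in that class 92 had an input of 0 in both lines.

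Levels are given from here on as RIP over input in FPKM, HT-29 first; where the input is 0 no fold is implied. Components and partners of the Wnt pathway supplied 5 members of 13 listed transcripts (38.5%, beside 26.8% of all). CSNK1A1, the casein kinase that primes beta-catenin for destruction, had a protein-coding transcript at 14 over 2.76 FPKM and at 2.07 over 0. DVL2, which relays the signal from Frizzled receptors, was at 2.77 FPKM over 0.000111 and at 1.21 over 0. FBXW11, a subunit of the ubiquitin ligase that marks beta-catenin, was present as a decay transcript at 2.11 and 1.61 FPKM in the RIP. WLS, which carries Wnt ligands to the cell surface, was at 5.54 and 1.58 FPKM, and CREBBP, an acetyltransferase that beta-catenin recruits, at 3.69 and 1.02 FPKM, and FBXW11, WLS and CREBBP were listed at 0 in both inputs. None of the 5 had an input above 0 in both lines. Of 3 listed transcripts of Wnt target genes, 1 was a member: TCF7, a TCF/LEF factor, at 4.23 FPKM over 0 and 2.48 over 0.703. CTNNB1 itself had no transcript listed in both tables and was no member, with 1 transcript in the HT-29 table and 3 in that of CaCo-2. RBM5-AS1, the antisense RNA also known as LUST, which the series title names, had no listed transcript.

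SCARNA2, MALAT1 and GAS5 gave non-coding members. SCARNA2, a small Cajal body RNA with a genomic span of 427 bases that the tables class as lincRNA, reached 106 FPKM in the RIP of HT-29 and 53.3 in that of CaCo-2, with both inputs listed at 0. MALAT1, a long RNA of nuclear speckles, had 1 listed transcript, spanning 1274 bases, at 83 FPKM over 1.18 and 128 over 0. No other MALAT1 transcript was listed, so its input of 0 in CaCo-2 refers to this transcript only. Of the list of nuclear-retained lncRNAs, MALAT1 was the only member of 2 listed transcripts. GAS5, a host gene of snoRNAs, had 2 members: a lincRNA transcript was at 6.67 over 1.46 FPKM and at 4.17 over 0, and a retained-intron transcript at 4.52 over 1.54 and at 1.23 over 0. All 4 of these member transcripts had an input of 0 in CaCo-2. GAS5 itself was in that input: another lincRNA transcript, listed in both tables and no member, was at 6.51 over 2.31 and 3.55 over 2.14. Within the span of both GAS5 members, the HT-29 table lists snoRNAs with RIP levels of 4810 and 21200 FPKM and inputs of 0, and whether their fragments were counted to the longer transcripts was not tested.

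Of the other long non-coding members, 4 had at least 1 FPKM in each library. The sense-intronic CTD-2651B20.6, spanning 308 bases, was at 10.4 FPKM over 2.91 and 16.8 over 4.96. AC004702.2, a lincRNA on chromosome 17, was at 7.82 over 2.78 and 24.5 over 7.74. The antisense RNA RP11-746M1.1, which shares its locus with USP22 members, was at 13.9 over 5.8 and 20.8 over 9.18, and RP11-805J14.5 at 4.69 over 1.35 and 4.05 over 1.26. All 4 exceeded their inputs by less than 3-fold on the scale of FPKM plus 1. PTCHD3P1, annotated as antisense, was at 20.6 and 2.79 FPKM, both from an input of 0. Strandedness of the libraries is not given in the sources used here, so reads of an antisense RNA and its partner cannot be told apart.

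Genes of the translation machinery supplied members in both strata. Cytosolic ribosomal proteins had 15 member transcripts of 36 listed (41.7%), 9 of them with input above 0 in both lines. RPL23A, a protein of the large subunit, was at 99.8 FPKM over 17.2 and at 56.4 over 9.25, log2 ratios of 2.47 and 2.48. RPL8 had a retained-intron transcript at 82.4 over 0.0644 and 34.5 over 0.678, and a protein-coding transcript at 6.46 over 1.64 and 8.83 over 2.54. In both lines the retained-intron isoform was higher in the RIP and lower in input than the coding one. RPS4X was at 91.5 FPKM over 0 and 37 over 14.9, and RPSA at 11.3 and 12.1 FPKM with both inputs at 0. Ribosomal protein genes have many processed pseudogenes, and how reads shared with these copies were assigned is not given in the sources used here.

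Translation factors had 10 of 28 listed transcripts among the members (35.7%), 6 with input above 0 in both lines. EIF3M, a subunit of the initiation factor that binds the small subunit, was at 21.6 FPKM over 2.12 and 6.57 over 1. A retained-intron transcript of EIF3B, from the same complex, was at 8.25 over 1.53 and 8.61 over 2.64. EIF4A1, the cap-complex helicase, had 2 retained-intron members, at 6.54 over 2.7 and 4.01 over 1.48 for one, and at 4.27 over 0.217 and 2.26 over 0.539 for the other. EIF5 and EIF4A2, a factor of start-site choice and a second helicase, each had 1 member, at 5.63 over 2.04 FPKM and 3.86 over 1.28 in HT-29. Mitochondrial ribosomal proteins gave 5 of 11 listed transcripts (45.5%). MRPL10 was at 6.3 over 2.29 FPKM and 22.1 over 9.91; it had the lowest ratios of the 5 in both lines, and the other 4 had an input of 0 in at least 1 line.

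The proteasome and ubiquitin list had the largest share of the 16 lists with at least 5 listed transcripts, 11 of 19 (57.9%), but 7 of the 11 had an input of 0 in both lines. This count did not hold under other settings, which also cut the 500 members as a whole. With a pseudocount of 2 FPKM it was 1, where 161 of all members were left. With a RIP level of at least 2 FPKM in both lines it was 4 (248 of all left), and at 3-fold 1 (116 of all left). Others of the 11 were measured in all 4 libraries. PSME2, a proteasome activator subunit, was at 9.27 over 3.3 FPKM and 5.35 over 1.81. UBE2L3, a ubiquitin-conjugating enzyme, was at 3.76 over 1.01 and 7.82 over 2.63. Cell cycle and mitosis genes had 12 of 23 (52.2%), 3 of them with both inputs above 0. The same settings left 2, 5 and 1 of these 12. Cyclin B1 (CCNB1), which drives entry into mitosis, was at 6.81 over 2.86 and 8.97 over 3. ECT2, an exchange factor needed for cytokinesis, was at 7.45 over 0.000306 and 3.06 over 0.916. MKI67, the proliferation marker, had a processed transcript at 3.86 over 0 and 2.98 over 0.899. Except for CCNB1, the members of this list had an input below 0.1 FPKM in at least 1 line.

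Genes of the endoplasmic reticulum gave 11 of 26 listed transcripts (42.3%), 3 of them with input above 0 in both lines. STT3A, the catalytic subunit of the oligosaccharyltransferase, was the only gene with 3 members: retained-intron transcripts at 10.1 over 0.0196 FPKM and 16.7 over 3.56, and at 6.58 and 7.47 from inputs of 0, and a protein-coding one at 2.48 and 3.26, also from inputs of 0. SSR1, of the translocon-associated complex, was at 6.13 over 2 and 4.24 over 0.848. Respiratory chain genes had 7 of 18 (38.9%), 1 of them with input above 0 in both lines. An input of at least 0.1 FPKM in both lines left 88 of all members. Of these, 2 were on the endoplasmic reticulum list and 0 on the respiratory chain list. The ATP synthase subunit ATP5F1 was at 5.49 over 0.000961 and 7.32 over 1.3. ATP5A1, the alpha subunit of the same enzyme, was at 11.7 over 0 and 18.2 over 5.02.

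Lists of nuclear function lay nearer the background of 26.8%. Chromatin regulators had 10 of 30 (33.3%), and among them CARM1, an arginine methyltransferase, was at 5.94 over 2.31 FPKM and 7.34 over 3.12. HDAC2, a histone deacetylase, was at 3.67 and 5.5 with inputs of 0. CHD2 had 2 members, a retained-intron transcript at 6.13 over 0 and 4.2 over 1.01, and a processed transcript at 3.73 and 4.89 with both inputs at 0. Splicing factors had 6 of 25 (24%), with DDX5, an RNA helicase, at 14.9 over 6.06 and 2.68 over 0.512. mRNA export genes had 4 of 18 (22.2%). ALYREF, the export adaptor, was the member after RPL8 in rank among those with both inputs above 0, at 22.4 FPKM over 0.00159 and 19.5 over 0.00112. Histone genes had 2 of 7, both from H3F3B, and snoRNA host genes 3 of 11.

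The shares of cytoskeletal and epithelial genes lay near that background and are no result about them. Cytoskeleton genes had 5 of 20 (25%), including a processed transcript of ACTB, cytoplasmic actin, at 15.7 and 7.24 FPKM with inputs of 0. Epithelial junction and keratin genes had 2 of 9 (22.2%). KRT18, a keratin of simple epithelia, was at 54.3 over 14.7 and 32 over 11.6, and LLGL2, a polarity protein, at 5.21 over 0 and 4.58 over 1.22. Nucleolar genes had 4 of 12 (33.3%), nuclear-retained lncRNAs 1 of 2, and no transcript of the plasma protein list was listed in both tables. With a pseudocount of 2 FPKM, where 161 of all 1866 transcripts are members, the counts were 9 for cytosolic ribosomal proteins, 8 for the endoplasmic reticulum, 6 for the respiratory chain, 3 each for translation factors, chromatin regulators and mitochondrial ribosomal proteins, and 1 for Wnt components. In all, 107 member genes fell in at least 1 of the 19 lists and 373 in none.

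**Figure D3:**
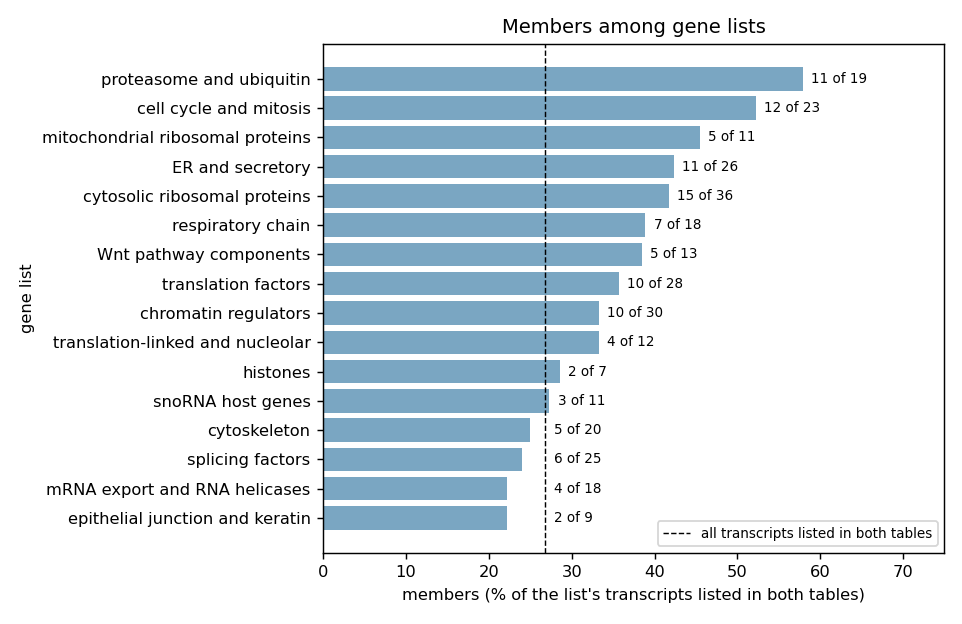
Bars give, for each gene list with at least 5 transcripts listed in both tables, the percent of those transcripts that are members; labels give the counts and the dashed line the 26.8% of all transcripts listed in both. Shares run from 22.2% for epithelial and mRNA export genes to 57.9% for proteasome and ubiquitin genes. The highest shares do not hold with a pseudocount of 2 FPKM (1 of 19 for proteasome and ubiquitin, 2 of 23 for cell cycle). At that setting 161 of all 1866 transcripts are members.

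Restricting the members to at least 1 FPKM in all 4 libraries left 36 transcripts of 35 genes, 10.3% of the 348 transcripts that meet this limit. Their median log2 ratio was 1.3 in both lines, while the 348 had 0.8 for HT-29 and 0.67 for CaCo-2, and the threshold was set on these ratios. They comprised 20 protein-coding, 7 retained-intron, 5 processed and 4 long non-coding transcripts, where the 348 had 195, 52, 51 and 17. The ratio differed by less than 0.25 log2 units between the lines for 22 of the 36, and it was higher in HT-29 for 24. Among the 348 these counts were 168 and 217. RPL23A, EIF3M and RPL7A were the 3 that reached 3-fold in both lines. RPL7A, a large-subunit protein, had a processed transcript at 14.1 over 3.05 FPKM and 9.16 over 2.

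Other members in this range spanned several functions. ANKRD30BL, from an ankyrin-repeat gene, was the most abundant, at 309 FPKM over 91.6 and 296 over 116. GSTP1, a glutathione transferase, was at 63.4 over 28.5 and 64.3 over 29.4, nearly the same in the lines. ANXA2, a membrane-binding annexin, was at 36 over 14.4 and 21.6 over 7.73. The tetraspanin CD63 had 2 members here, the more abundant at 39.2 over 11.1 and 23.4 over 10.7. PAPOLA, the poly(A) polymerase, was at 5.86 over 1.14 and 5.03 over 1.05. HIF1A, the hypoxia factor, had a processed transcript at 6.79 over 2.37 and 5.84 over 1.87. PKP4, an armadillo-repeat protein of cell junctions related to beta-catenin in its repeats, had a retained-intron transcript near the threshold, at 3.99 over 1.29 and 5.09 over 1.99.

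**Figure D4:**
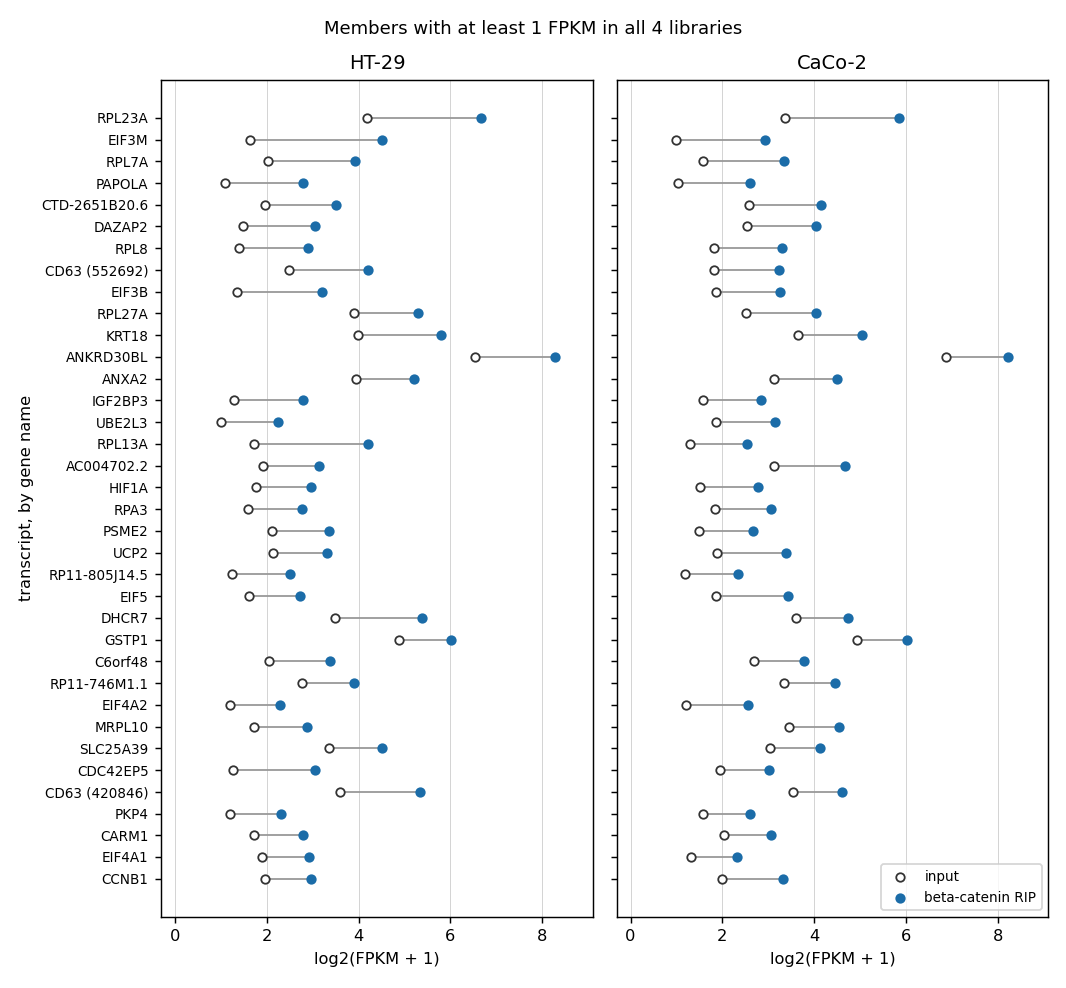
For each of the 36 members with at least 1 FPKM in all 4 libraries, the open circle is input and the filled circle RIP, as log2 of FPKM plus 1, in HT-29 and CaCo-2; each circle is 1 library. Rows run from the highest lower ratio (RPL23A) to the lowest, and ANKRD30BL has the highest levels.

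RefSeq genes that hold a snoRNA gene within their interval recurred among these 36 transcripts. Of their 35 gene names, 31 matched RefSeq, and 10 of the 31 held a snoRNA gene (32.3%), beside 35 of 312 (11.2%) for all genes with at least 1 FPKM in all 4 libraries. The 10 were RPL23A, RPL7A, RPL13A, RPL27A, EIF4A1, EIF4A2, EIF5, C6orf48, IGF2BP3 and CCNB1. Over all members the share was 43 of 463 matched genes (9.29%), beside 103 of 1566 (6.58%) for genes listed in both tables. RPL23A holds 4 such genes and EIF4A2 holds 5. Of the 10, only CCNB1 held no snoRNA gene with a SNORA or SNORD name. This comparison was chosen after the values were seen, and the RefSeq table gives no strand. In the deposited tables themselves, a snoRNA on the same strand was listed within the span of 5 of the 500 members (1%) and 18 of the 1866 transcripts (0.965%). Those 5 were GAS5 (2 transcripts), RPL27A, NOP56 and EIF4G2, and whether snoRNA fragments add to their levels was not tested. Of the 36, RPL27A alone had such a listed snoRNA (1 transcript, 2.78%), beside 6 of the 348 transcripts (1.72%).

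The authors' deposited tables give a q-value for each transcript from 1 library per side. There, q was 0.05 or less for 30 members in the HT-29 table and 34 in that of CaCo-2, in tables where 3.01% of all listed transcripts in HT-29 and 2.27% in CaCo-2 had such a q. The median q of the members in the authors' deposited tables was 0.642 in HT-29 and 0.782 in CaCo-2, beside 0.821 and 0.956 for the other 1366 transcripts. MALAT1, the retained-intron RPL8 transcript and ALYREF follow SCARNA2 in the lower ratio of the lines. For them the authors' deposited tables have q of 0.99997, 0.949 and 0.9998 in HT-29, and no lower in CaCo-2. Both lines had a q of 0.05 or less for 18 of the 1866 transcripts (0.965%), and 15 of these were members. The q-values come from the contrast that chose the members and are given as description.

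**Figure D5:**
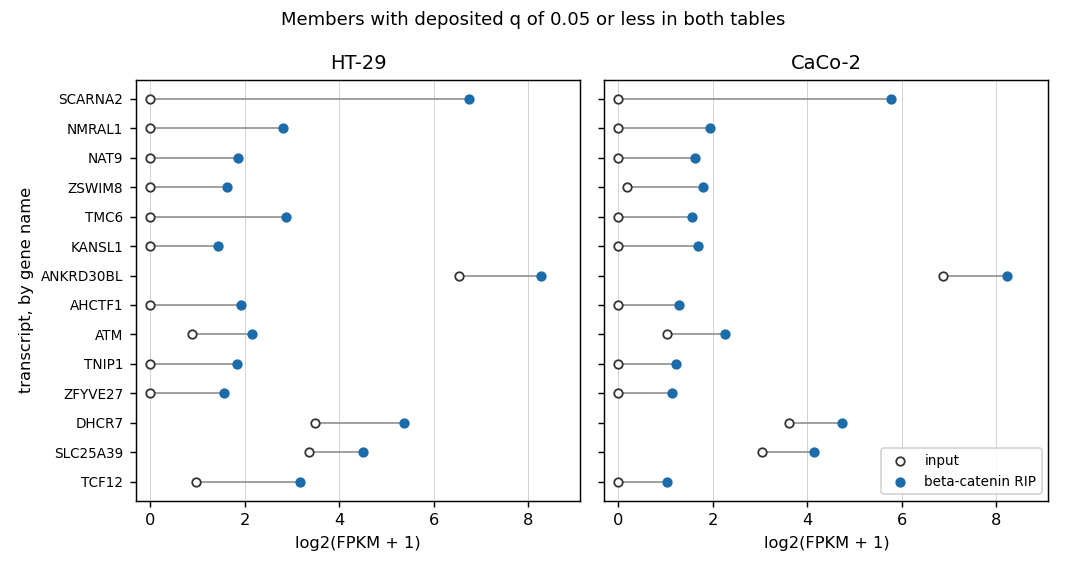
For 14 of the members with a q of 0.05 or less in both of the authors' deposited tables, open circles are input and filled circles RIP, as log2 of FPKM plus 1, by line; each circle is 1 library. In 8 of them input was listed at 0 in both lines, and ANKRD30BL, DHCR7 and SLC25A39 have the highest inputs.

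Of the 15, 4 had an input above 0 in both lines. DHCR7, which completes cholesterol synthesis, was at 40.4 FPKM over 10.2 and 25.5 over 11.2, where the authors' deposited tables have q of 1.21e-05 and 0.019. SLC25A39, a mitochondrial carrier that imports glutathione, was at 21.8 over 9.26 and 16.5 over 7.27, where the authors' deposited tables have q of 0.0486 and 0.0274. For ANKRD30BL the authors' deposited tables have q of 2.8e-08 and 1.83e-05. ATM, the kinase that answers DNA breaks, was at 3.43 over 0.843 and 3.8 over 1.03, where the authors' deposited tables have q of 0.00461 and 0.0291. The fold in these 4 genes was modest, with log2 ratios between 1.08 for SLC25A39 in CaCo-2 and 1.88 for DHCR7 in HT-29.

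The other 11 had an input of 0 in at least 1 line. AHCTF1 (ELYS), which seeds nuclear pores on chromatin, was at 2.79 and 1.44 FPKM, and the authors' deposited tables have q of 1.36e-07 and 1.81e-06. For SCARNA2 the authors' deposited tables have q of 0.000259 and 3.14e-08. NMRAL1, an NADPH sensor, was at 5.97 and 2.81 FPKM, and KANSL1, a scaffold of a histone acetyltransferase complex, at 1.69 and 2.2 FPKM, all from inputs of 0. TCF12, a transcription factor that is no TCF/LEF protein despite its name, was at 7.94 over 0.943 and 1.05 over 0. NAT9, TMC6, TNIP1 and ZFYVE27 were also listed at 0 in both inputs, and ZSWIM8 at 0 in HT-29 input. The listed DHCR7 transcript spans 14022 bases (chr11:71145460-71159481) on the minus strand of hg19. FOCAD, SYNE2 and ZNF217 had such a q in both tables of the authors' deposited values but CaCo-2 log2 ratios of 0.9, 0.73 and 0.66, and so were no members.

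Members with an input of 0 in both lines included, beside SCARNA2, RPSA and ACTB, other widely expressed genes. NAP1L1, a histone chaperone, reached 9.41 FPKM in the RIP of HT-29 and 4.51 in that of CaCo-2. YWHAZ, a 14-3-3 protein, was at 13.8 and 4.47 FPKM, and BCAP31, an ER membrane chaperone, at 8.25 and 3.87. RBM39, a splicing factor, was at 5.9 and 4.49 FPKM. GRINA and PDCD5 appeared as retained-intron transcripts, at 5.55 and 10.1 FPKM and at 5.69 and 5.47 FPKM. Of these 6 transcripts, GRINA alone was higher in CaCo-2. An input of 0 refers to 1 isoform, and most of these genes had other listed isoforms in the input. Summed over listed isoforms, HT-29 first, the input of ACTB was 29.7 and 11.7 FPKM, and that of NAP1L1 10.1 and 6.88. The sums were 7.66 and 11.2 for RBM39, 2.74 and 1.13 for PDCD5, and 1.34 and 2.26 for RPSA. YWHAZ had 0.263 and 0.587, and GRINA 1.75 and 0. SCARNA2 and BCAP31 had no other listed transcript. Unlisted isoforms may also be in the input and were not analysed here.

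The isoform structure of the tables bears on every gene name. A single member transcript was found for 461 of the 480 genes, 2 for 18 and 3 for STT3A. A further transcript was listed in both tables without being a member for 84 genes, and for 359 genes a further transcript was listed in 1 line only. No other transcript was listed in either table for 108 genes, among them ANKRD30BL, SCARNA2, AHCTF1 and MALAT1. Other transcripts of member genes numbered 586 in the HT-29 table, where 338 were past 2-fold, and 649 in the CaCo-2 table, where 223 were. These shares lay near the 55.2% and 33.7% of all transcripts listed outside the short classes. For KRT18, 2 retained-intron transcripts listed only in HT-29 were at 32.5 over 17.5 and 25.7 over 16.7 FPKM, under the threshold. For RPL8, a protein-coding isoform listed only in HT-29 was at 68.7 over 38.7 FPKM. Thus the same gene held isoforms inside and outside the selection. The loci given in the tables held more than 1 member in 23 cases, and 5 of these joined different genes, such as ALG3, EIF2B5 and PSMD2 on chromosome 3 or IRF9 and PSME2 on chromosome 14.

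Between the lines, the ratio was higher in HT-29 for 355 of the 500 members, beside 1257 of all 1866 transcripts. The tables were treated as normalised separately, so levels of the lines are only set side by side. RIP levels were within 1.5-fold of each other for 208 members and at least 2-fold apart for 174. Among all 1866 transcripts these counts were 821 and 565. Across the 133 members with input above 0 in both lines, the log2 ratios of the lines had a Pearson coefficient of 0.63 and a Spearman coefficient of 0.39. Across all 1110 transcripts with such inputs these were 0.33 and 0.22. Transcripts share their libraries and are not replicates, and the threshold truncates the members' values. Among the 133, IFI27, an interferon-induced gene, differed most, at 23.5 over 1.54 FPKM and 2.28 over 0.533, log2 ratios of 3.27 and 1.1. EMD, which encodes the inner nuclear membrane protein emerin, followed ECT2 in this order, at 8.79 over 0.196 and 5.91 over 2.18. The smallest difference was that of NR1H3, a sterol-sensing nuclear receptor, with log2 ratios of 1.34 and 1.35.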

How the data were processed

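Expression is FPKM per transcript, computed and normalised by the authors and deposited as 1 table per line, with a p-value, a q-value and a log2 fold from the authors' Cuffdiff run. Per the submitters' processing notes the tools were Cuffdiff, Cufflinks, TopHat2 2.0.8, Bowtie2 and CASAVA 1.4, on hg19. Transcript coordinates are hg19, written from 1. The pseudocount was 1 FPKM and the threshold 2-fold (log2 of 1). With 1 library per group there was no test. The members, the 19 gene lists and the rule for named genes were chosen with earlier results of these data known. The rule named members by the highest ratio or RIP level in each input stratum and class, by the largest and smallest difference between lines, by deposited q, by the lists and by closeness to the threshold; genes outside it were named after their values were seen. The member selection was tested on simulated data. Of 480 gene names, 438 were current RefSeq symbols (GRCh38.p14), 25 older ones and 17 unmatched. Python 3.11.15, pandas 2.3.3, numpy 2.4.6 and matplotlib 3.10.9 were used. The pseudocount, minimum levels, threshold, deposited fold, short classes and isoform choice were varied. Of the 15 members with a deposited q of 0.05 or less in both tables, 1 is not reported here.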

Additional observations from a re-analysis of the deposited data

How the results depend on the processing

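The counts below give, in order, members, members with input above 0 in both lines, members with input 0 in at least 1 line, gene names, protein-coding, long non-coding and retained-intron members; the reported values are 500, 133, 367, 480, 278, 15 and 78. A pseudocount of 0.1 FPKM gave 1003, 403, 600, 939, 515, 40 and 182, with a median lower log2 ratio of 1.31 for members with both inputs above 0 (reported 1.21). A pseudocount of 2 FPKM gave 161, 53, 108, 156, 87, 7 and 20, with a median of 1.19. Requiring 1 FPKM in all 4 libraries left 36 members of 35 genes, all with input above 0 in both lines, of which 20 were protein-coding, 4 long non-coding and 7 retained-intron; the count with input 0 is then 0 by construction, and the median was 1.2. A RIP level of 2 FPKM in both lines gave 248, 104, 144, 239, 134, 11 and 35, with a median of 1.25. The authors' deposited fold of 2 or more gave 1075, 454, 621, 1006, 542, 45 and 196, with a median lower ratio of 0.85. A threshold of 3-fold gave 116, 25, 91, 114, 59, 4 and 14, with a median of 1.84. An input of at least 0.1 FPKM in both lines, chosen after the data were seen, left 88 members of 86 genes, with 42 protein-coding, 8 long non-coding and 19 retained-intron transcripts. Keeping short RNA classes gave 535 members (median 1.24), and 1 transcript per gene gave 442 (median 1.19). Of the 15 members with a deposited q of 0.05 or less in both tables, 3 remained with 1 FPKM in all 4 libraries and 13 with 1 transcript per gene. Of the 19 gene lists, the count of members moved by over 1.5 times in 14 with a pseudocount of 2 FPKM, in 17 at 3-fold and in 18 with an input of at least 0.1 FPKM in both lines. No paired analysis was possible because each group has 1 library, and leaving out a library leaves no ratio.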

Other observations

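Beside DHCR7, another gene of cholesterol synthesis was among the members; it was picked after its values were seen. SC5D, an enzyme of the late steps of the pathway, had 1.53 FPKM after pull-down and 0.226 in input for HT-29, then 6.37 and 1.45 for CaCo-2. The HT-29 level was close to the lowest listed there, 1.31 FPKM. For CaCo-2 a further SC5D transcript was listed and no member, and both together summed to 10.8 FPKM over 4.19.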
